A study of Mus musculus with 8 samples.

Results

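The genes described here are Cyp2a4, Cyp2a12, Cyp2a22, Cyp2f2 and Cyp2g1, cytochrome P450 genes that lie beside the Cyp2b genes on mouse chromosome 7. They were chosen by name, as members of that cluster, and every array feature (spot) annotated with one of the names was used. This gave 6 features, a pair of them for Cyp2a4 and a single one for each other gene, and 5 genes of the 20738 that were measured. The RNA was total RNA from the livers of male mice of the outbred CD-1 stock, hybridised to 8 Agilent arrays with a single dye. A control diet (0 ppm) was given for 4 of the samples and NaPB, sodium phenobarbital, at 2500 ppm in the diet for the other 4, in both cases for 7 days. All samples were thus of one sex and stock, and no other allele or agent is named. The labels leave unsaid whether each array stands for its own animal, so p-values here reflect the spread between samples that may be only technical repeats.

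Cytochrome P450 enzymes are heme proteins of the endoplasmic reticulum that oxidize steroids, bile acids, drugs and other foreign compounds, using electrons passed on by P450 reductase. Phenobarbital acts in hepatocytes mainly through the nuclear receptor CAR, and Cyp2b10 is its classical target gene in mouse liver. The neighbours of the Cyp2b genes have other known roles. Cyp2a4 encodes a testosterone hydroxylase that is typically higher in female than in male mouse liver. Cyp2a12 encodes a hydroxylase of steroids and bile acids. Cyp2f2, best known for activating naphthalene in club cells of the lung, is in liver a gene of periportal hepatocytes. Cyp2g1 is known as a P450 of the olfactory mucosa.

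On the NaPB diet Cyp2a4 rose 16.7-fold, and it was the only one of the 5 genes that passed the test over all genes. Its features may also read RNA of Cyp2a5, a close copy, so the rise is that of the signal assigned to Cyp2a4. Cyp2g1, faint on the control arrays, was far higher on 3 of the 4 NaPB arrays and not on the other. The single features of Cyp2a12, Cyp2a22 and Cyp2f2 did not pass. The test was a linear model fitted with limma across all genes on log2 intensities, each gene through its brightest feature, with Benjamini-Hochberg adjustment and a threshold of 0.05; a gene that passes is called. Over all genes 1.01% were called, 0.391% as higher on the NaPB diet. The diets did not overlap for 7.04% of genes, and for 1 of the 5 genes of the cluster described here, Cyp2a4.

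The arrays were not alike, which touches every result below. Over the 62976 features the deposited values of NaPB replicate 2 took only 3443 distinct values, against at least 62756 on each other array. Why the values of that array are coarser is not given in the sources used here. NaPB replicate 4 and control replicate 1 had the lowest weights when limma estimated a weight for each array (0.313 and 0.308, against 1.14 to 1.98 for the others). Hepatocyte markers, 10 genes such as Alb and Apoa1, were far above the floor on every array; their summed intensity was 4919 on NaPB replicate 4, 7405 to 8711 on the other NaPB arrays, 13690 on control replicate 1 and 7762 to 10992 on the other controls. None of these 10 passed, and 2 fell after quantile normalization. Of markers of other cell types, none of 9 for Kupffer cells and macrophages, 6 for cholangiocytes, 7 for stellate cells and 7 for endothelial cells passed, and among 7 for erythroid cells and neutrophils only S100a8 did, as higher (log2 fold change 6.43 ± 1.04, SE; limma adjusted p = 0.0176). No gene of that last list rose in the fits without control replicate 1, 2 or 3 or without NaPB replicate 1 or 3, with the trend and robust options, or with a pseudocount of 1. In that list 1 gene fell without control replicate 1, without both that array and NaPB replicate 4, and with array weights. The summed intensity of the Kupffer cell and macrophage markers was 21.7 to 25.6 on NaPB arrays and 30.1 to 32.3 on controls, with Timd4 at the floor on all 8 arrays. Of 6 markers of club cells and olfactory epithelium none passed, and their summed intensity ran from 2.32 to 2.96 on NaPB arrays and from 2.32 to 2.95 on controls. The part of any of these in the results was not tested. In RNA from whole liver, fewer cells of a type and less RNA per cell cannot be told apart.

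Cyp2a4 (NCBI gene 13086) was read by 2 features, 5997 and 7900. On feature 5997 the intensity was 3.90, 9.29, 10.3 and 18.2 on control replicates 1 to 4. On the NaPB diet it was 196, 230.2, 279 and 42.1. All NaPB arrays lay above all control arrays, the first 3 close together and the remaining one, replicate 4, well below them. The log2 fold change was 4.06 ± 0.62 (SE, n = 4 arrays per diet; 95% interval 2.69 to 5.44; limma adjusted p = 0.0133). By its size this was number 18 among the rises of all genes tested. The dimmer feature, 7900, gave 1.14, 2.55, 2.49 and 3.88 with the control diet and 42.4, 53.2, 51.1 and 7.98 with NaPB. It had the same order of the diets and the same low NaPB array. In a fit of all features singly, where 1.02% of features were called, both features of Cyp2a4 were called, with log2 fold changes of 4.06 ± 0.62 (limma adjusted p = 0.0128) and 3.75 ± 0.60 (limma adjusted p = 0.0164). The changes of the 2 features differed by 0.32 log2 units (exact two-sided permutation test, p = 0.0857). Their log2 ratio was 1.77 to 2.23 on control arrays and 2.11 to 2.45 on NaPB arrays, so the diets overlapped. With 4 arrays per diet this does not show that the features changed alike. Without NaPB replicate 4 the log2 fold change of Cyp2a4 was 4.68, and without NaPB replicate 1 it was 3.94 and was not called (limma adjusted p = 0.0508); it was called in the other 7 fits that left out an array.

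**Figure D1:**
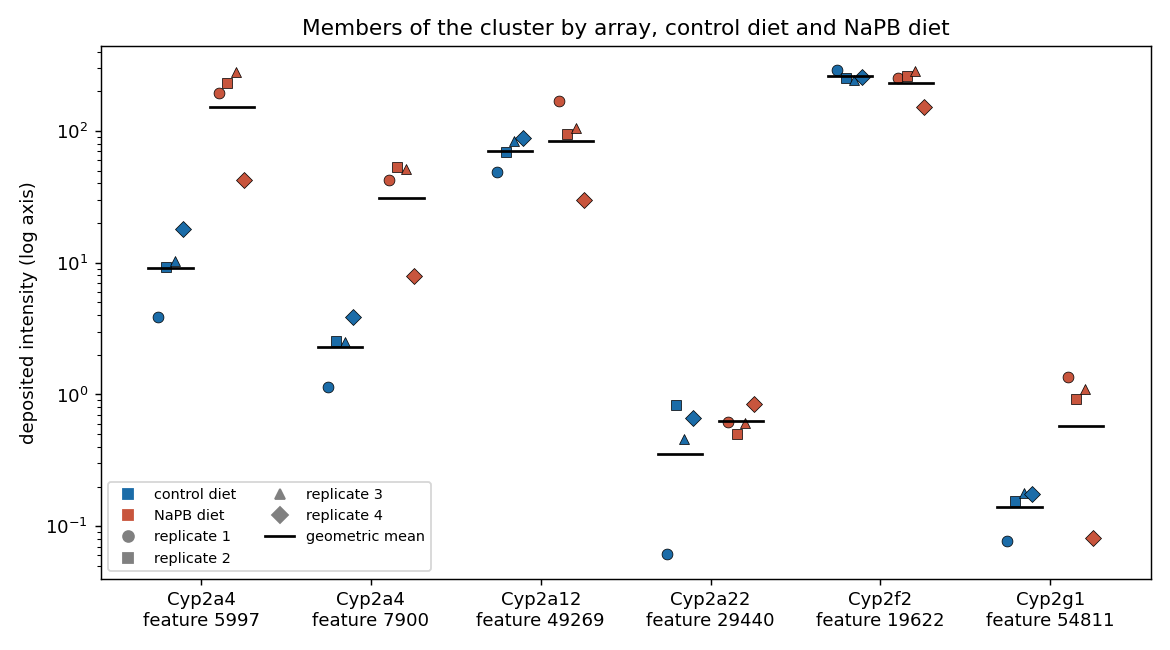
Deposited intensity (log axis) of the 6 features of Cyp2a4, Cyp2a12, Cyp2a22, Cyp2f2 and Cyp2g1, with blue points for control arrays, red points for NaPB arrays, a shape for each replicate number and a bar at the geometric mean of the diet. Both features of Cyp2a4 stand higher on every NaPB array than on any control array, NaPB replicate 4 (red diamond) is the lowest NaPB array of every gene but Cyp2a22, and Cyp2f2 lies between 244 and 289.6 on the other 7 arrays.

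Cyp2a5, the coumarin hydroxylase gene, is a close copy of Cyp2a4 in the same cluster, and no feature carried its name. The files hold no probe sequences, so it was not possible to read from them whether the Cyp2a4 features also bind Cyp2a5 RNA, and the values may be those of both genes. The likeness of the pair can be seen upstream of the genes as well. The 100 bases before the annotated start are given here for Cyp2a4 and Cyp2a5, for Cyp2a12 and Cyp2a22 as the pair of Cyp2a genes that was not called, and for Cyp2b10 as the reference for phenobarbital. They are RefSeq sequences on the GRCm38.p6 assembly, written 5′ to 3′ on the strand of the gene, at chr7:26307092-26307191 (plus strand), chr7:26835239-26835338 (plus), chr7:27028990-27029089 (plus), chr7:26939387-26939486 (minus) and chr7:25897558-25897657 (plus). Capitals mark 3 motifs that were searched for on both strands: TATAAA, the core of a TATA box; CAAAGTCC, part of an HNF4 element; and TTGCATAA, of the kind read by C/EBP and PAR bZIP factors.
Cyp2a4: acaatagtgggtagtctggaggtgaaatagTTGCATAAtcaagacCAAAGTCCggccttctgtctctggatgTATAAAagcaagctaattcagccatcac
Cyp2a5: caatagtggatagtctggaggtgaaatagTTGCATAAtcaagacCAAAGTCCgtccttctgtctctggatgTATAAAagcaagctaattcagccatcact
Cyp2a12: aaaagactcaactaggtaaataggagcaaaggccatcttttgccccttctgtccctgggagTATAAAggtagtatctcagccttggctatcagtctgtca
Cyp2a22: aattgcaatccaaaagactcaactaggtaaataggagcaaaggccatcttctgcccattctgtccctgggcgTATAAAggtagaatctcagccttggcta
Cyp2b10: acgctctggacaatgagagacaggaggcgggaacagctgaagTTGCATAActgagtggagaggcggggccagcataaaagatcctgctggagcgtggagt

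Over the 250 bases before the start, Cyp2a4 and Cyp2a5 were identical at 97.6% of aligned positions and Cyp2a12 and Cyp2a22 at 82.5%, whereas Cyp2a4 and Cyp2a12 were identical at 52.1% and Cyp2a4 and Cyp2b10 at 49.3%. Within these 250 bases TATAAA was found in all 4 Cyp2a genes and not in Cyp2b10 or Cyp2f2, and in 12.4% of the 32851 start sites of the table. CAAAGTCC was found in Cyp2a4 and Cyp2a5, at positions -55 and -56 from the start, and in none of the other P450 genes of the cluster with a sequence; 1.20% of all start sites held it. TTGCATAA was found in Cyp2a4 (position -70), Cyp2a5 (position -71) and Cyp2b10 (position -58), and also in Cyp2b19 and Cyp2b23, against 0.694% of all start sites. Of the genes with TTGCATAA that were measured, Cyp2a4 and Cyp2b10 rose and Cyp2b19 and Cyp2b23 were not called. Another motif, AGGTCA, a half-site of nuclear receptors, was found in 14.0% of all start sites. Among the genes described here with a sequence, only Cyp2f2 held it (position -221). Of the other P450 genes of the cluster, Cyp2b9 and Cyp2b13, which rose, and Cyp2b19, Cyp2b23 and Cyp2t4, which were not called, also held it. A match of letters is a description and not a shown binding site, and the motifs were picked after the sequences had been read.

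Cyp2a12 (NCBI gene 13085) lay at 48.6, 68.7, 83.2 and 88.3 on control replicates 1 to 4. On the NaPB arrays it lay at 168, 95.3, 105 and 30.1. The first 3 NaPB arrays stood above every control array and NaPB replicate 4 stood below every control array, so the diets overlapped. The log2 fold change was 0.26 ± 0.48 (SE, n = 4 per diet; 95% interval -0.79 to 1.31; limma adjusted p = 0.91). It was 0.76 ± 0.32 without NaPB replicate 4, where it did not pass either (limma adjusted p = 0.329). The interval takes in a change of 2-fold in the upward direction, so these arrays do not show that Cyp2a12 was unaffected.

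Cyp2a22 (NCBI gene 233005), a further Cyp2a gene next to Cyp2a12, was measured at low intensity. It lay at 0.0611 on control replicate 1, which is at the floor of that array (up to 2 times its lowest value, 0.0595), and at 0.828, 0.459 and 0.659 on control replicates 2 to 4. The NaPB arrays gave 0.62, 0.498, 0.603 and 0.854, within or just above the range of those 3 controls. The log2 fold change of 0.84 ± 0.69 (SE, n = 4 per diet; limma adjusted p = 0.776) came to 0.003 ± 0.30 without control replicate 1. Cyp2a22 was the only gene of the 5 that was highest on NaPB replicate 4 among the NaPB arrays.

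Cyp2f2 (NCBI gene 13107) was bright and nearly level. Its intensity was 289.6, 253, 244 and 258 on control replicates 1 to 4. It was 251, 260.5, 288 and 152 on the NaPB arrays. The first 3 NaPB arrays fell inside the control range and NaPB replicate 4 fell below it. The log2 fold change was -0.17 ± 0.28 (SE, n = 4 per diet; 95% interval -0.79 to 0.44; limma adjusted p = 0.894), and 0.03 ± 0.22 without NaPB replicate 4. The interval reaches from a fall of less than 2-fold to a rise of less than 2-fold. Of 14 other measured genes known as periportal in liver, none passed, 5 lay above 0 and the median log2 fold change was -0.38, beside 0.01 over all genes; Etnppl had the smallest p (-1.95 ± 0.53, limma adjusted p = 0.155) and fell without NaPB replicate 4 (limma adjusted p = 0.0379). Of 14 pericentral genes none passed, 4 lay above 0 and the median was -0.52, with the smallest p for Slc1a2 (-1.36 ± 0.35, limma adjusted p = 0.126), which fell without control replicate 2 (limma adjusted p = 0.0483). With all arrays kept, 1 periportal gene fell after quantile normalization and 1 with array weights. After quantile normalization 1 pericentral gene fell too. Without both control replicate 1 and NaPB replicate 4, 1 periportal gene fell and 1 pericentral gene rose. The hepatocyte markers named above had a median of -0.43.

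Cyp2g1 (NCBI gene 13108) was faint on the control diet, at 0.0767 on replicate 1, which is at the floor, and at 0.156, 0.18 and 0.177 on replicates 2 to 4. On the NaPB diet it was 1.36, 0.927 and 1.10 on replicates 1 to 3 and 0.082 on replicate 4. Thus 3 NaPB arrays stood above every control array while NaPB replicate 4 stood among the lowest controls. The log2 fold change was 2.05 ± 0.78 (SE, n = 4 per diet; 95% interval 0.34 to 3.77), which did not pass over all genes (limma adjusted p = 0.365). Without NaPB replicate 4 it was 3.00 ± 0.35 and passed (limma adjusted p = 0.00493), and without both that array and control replicate 1 it was 2.71 ± 0.23 (limma adjusted p = 0.00225). With any other single array left out it ran from 1.64 to 2.18 and was not called. Whether Cyp2g1 differed between the diets therefore rests on how NaPB replicate 4 is treated.

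**Figure D2:**
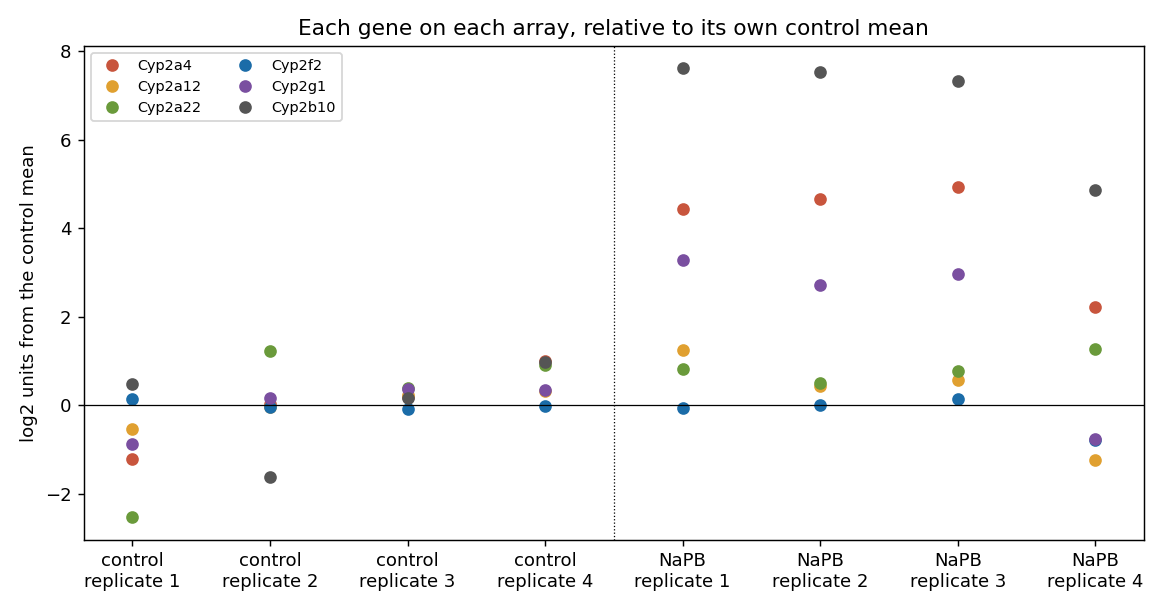
Each gene on each of the 8 arrays in log2 units from its own control mean (0 line), with the control diet left of the dotted line and the NaPB diet right of it. On NaPB replicates 1 to 3 the order is Cyp2b10, Cyp2a4, Cyp2g1 and then the others, and on NaPB replicate 4 Cyp2a4 stands at 2.22, Cyp2g1 at -0.77 and Cyp2a12 at -1.22.

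The changes of the genes were then set against each other within each array, by an exact two-sided permutation test over the 8 arrays; 10 pairs among the 5 genes and the 5 pairs with Cyp2b10 were tested. The smallest p this design allows is 0.0286, and 9 pairs reached it (0.0476 after Benjamini-Hochberg adjustment over the 15 pairs). Cyp2a4 rose by 4.24 log2 units more than Cyp2f2, with differences of 4.49, 4.67, 4.80 and 3.00 on NaPB replicates 1 to 4 and of -1.37 to 1.02 on the control arrays, each relative to the control mean (p = 0.0286, exact). It rose by 3.80 more than Cyp2a12, with 3.17, 4.23, 4.37 and 3.44 on NaPB and -0.68 to 0.68 on control arrays (p = 0.0286, exact). NaPB replicate 4 thus stood with the other NaPB arrays once Cyp2a4 was read against Cyp2a12 of the same array. The change of Cyp2a4 also exceeded that of Cyp2g1, by 2.01 (p = 0.0286, exact). This difference was 1.15, 1.94, 1.97 and 2.99 on NaPB replicates 1 to 4 and -0.35 to 0.67 on control arrays. Without NaPB replicate 4 it was 1.69. Cyp2g1 was at the floor on control replicate 1, and the part of this in the difference was not tested. The change of Cyp2a4 was not separated from that of Cyp2a22 (3.22, p = 0.0571, exact). There the diets overlapped through control replicate 1 (1.31), where Cyp2a22 was at the floor, and NaPB replicate 4 (0.94); the other controls lay from -1.20 to 0.10, below every NaPB array. The change of Cyp2a12 minus that of Cyp2g1 was -1.79 (p = 0.0286, exact). By array this difference was -2.03, -2.29 and -2.40 on NaPB replicates 1 to 3. On NaPB replicate 4 it was only -0.46, near the lowest control array (-0.20). The change of Cyp2f2 minus that of Cyp2g1 was -2.23, where the diets overlapped (p = 0.114, exact). Cyp2a12, Cyp2a22 and Cyp2f2 were not told apart from each other (p from 0.314 to 0.571, exact).

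Cyp2b10 rose more than every gene described here. Its intensity was 3.72, 0.863, 2.98 and 5.22 in the control replicates, against 521, 491, 429.5 and 77.7 in the NaPB replicates. The excess over Cyp2a4 was 2.77 log2 units, with 3.18, 2.86, 2.39 and 2.65 on NaPB replicates 1 to 4, and control arrays between -1.66 and 1.70 (p = 0.0286, exact). Both genes were lowest on the same NaPB array, replicate 4, which stood at -2.62 log2 units for Cyp2b10 and -2.46 for Cyp2a4 from the mean of the other NaPB arrays. The excess of Cyp2b10 over Cyp2g1 was 4.78, over Cyp2a22 5.99, over Cyp2a12 6.58 and over Cyp2f2 7.01 log2 units (p = 0.0286 for each, exact). Against Cyp2a22 the diets came close, with 3.59 on NaPB replicate 4 and 3.01 on control replicate 1, where Cyp2a22 was at the floor.

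Along the chromosome the P450 genes called as higher stood next to each other in the order of P450 genes, as far as the features can be assigned to genes. The RefSeq annotation gives the order Cyp2s1, Cyp2b10, Cyp2b13, Cyp2b9, Cyp2a4, Cyp2b23, Cyp2b19, Cyp2g1, Cyp2a5, Cyp2a22, Cyp2a12, Cyp2f2 and Cyp2t4, 13 genes of which 12 were measured, with P450 pseudogenes between some of them. The whole stretch holds 40 annotated genes, 4 of them P450 pseudogenes. Genes of other kinds thus lie in it as well, and no separate list was made of them. The 4 that rose, Cyp2b10 (log2 fold change 6.84 ± 0.69), Cyp2b13 (4.17 ± 0.68), Cyp2b9 (4.63 ± 0.65) and Cyp2a4, hold places 2 to 5. Not all of these calls held under other settings. With a pseudocount of 1, which shrinks dim genes, only 1 of the 7 measured P450 genes other than the 5 described rose. At a threshold of 0.01, 2 of those 7 rose. Cyp2a4 was called in neither case. The Cyp2a4 features may also bind RNA of Cyp2a5, which holds place 9 and was not measured. Which of the 2 genes rose is therefore not known. Cyp2b13 lay at 0.0643 to 0.213 on the control arrays, at the floor on replicate 1, and at 7.48, 5.33, 1.62 and 0.798 on the NaPB arrays; it was not called without control replicate 1 or NaPB replicate 2 (limma adjusted p = 0.0506 and 0.0514). Cyp2b9 lay at 0.184 to 0.516 with the control diet, and at 14.9, 14.96, 10.2 and 1.71 on NaPB replicates 1 to 4. Beyond Cyp2a4 no gene of the cluster was called with all 8 arrays weighted alike. Cyp2g1, at place 8, was called without NaPB replicate 4. Of the 7 measured P450 genes of the cluster other than the 5 described, 3 rose and the median was 0.26. Cyp2b23 had a log2 fold change of 0.26 ± 0.42, Cyp2b19 of 0.05 ± 0.37 and Cyp2t4 of -0.38 ± 0.26, and Cyp2s1 was at the floor on 7 of 8 arrays. Cyp2b9 and Cyp2b13 are a near-identical pair, at 99.2% over the 250 bases before the start, and their features may share RNA in the same way as those of Cyp2a4 and Cyp2a5.

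**Figure D3:**
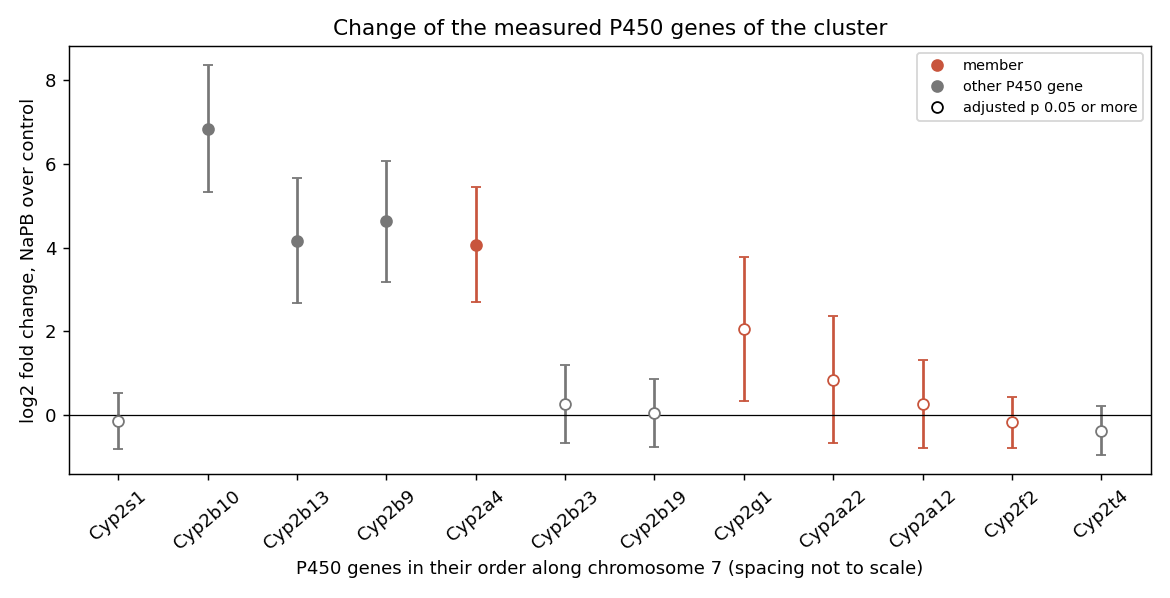
Log2 fold change (NaPB over control, limma) with its 95% interval for the 12 measured P450 genes in chromosomal order, red for the 5 genes described and grey for the others, open where the adjusted p was 0.05 or more. The 4 filled points, from Cyp2b10 (6.84) to Cyp2a4 (4.06), are neighbours in the order, and the genes after Cyp2a4 are all open. Cyp2a5, which the Cyp2a4 features may also read, lies after Cyp2g1 and was not measured.

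Of 14 genes that flank the cluster and are not P450 genes, none passed and the median log2 fold change was -0.15; Mia, which encodes a secreted cartilage protein, had the smallest p (-1.01 ± 0.28, limma adjusted p = 0.158). Among 14 measured partners of P450 enzymes and receptors or factors known to act on such genes, none passed (median 0.30). With all 8 arrays kept, 1 of them rose after quantile normalization, with limma's trend and robust options, or without genes below the median intensity, and 3 rose with array weights. Por, the P450 reductase, had the smallest p (2.61 ± 0.59, limma adjusted p = 0.0761); without NaPB replicate 4 it passed at 3.26 ± 0.35 (limma adjusted p = 0.00336), as did Cyb5a, the cytochrome b5 gene (1.54 ± 0.27), and Alas1, of heme synthesis (2.52 ± 0.46). Dbp, a PAR bZIP factor known to act on Cyp2a4, had a log2 fold change of 0.31 ± 0.23, Hnf4a one of 0.29 ± 0.26 and Nr1i3, the CAR gene, one of -0.21 ± 0.33. Because Cyp2a4 is a gene of female-typical expression, it was set beside 12 other measured female-biased liver genes: 8 rose, none fell and the median was 3.91, with the smallest p for Cyp3a44, Sult2a1 and Sult2a2, each at the floor in all 4 controls, and Prom1, at the floor in 2 of them. Cyp2b9 and Cyp2b13 are on this list too. Without control replicate 1, 5 rose, and with a pseudocount of 1 added to every intensity, which shrinks dim genes, 1 rose. Of 14 male-biased genes 2 fell, Hsd3b5 (-6.30 ± 0.91, limma adjusted p = 0.0101) and Susd4 (-2.94 ± 0.45, limma adjusted p = 0.0128), and the median was -0.90. These lists were chosen with results of these data known, so the counts describe them and give no independent support.

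For each gene the 3 genes nearest in pattern were sought among 10366 other genes at or above the median intensity, by the root mean square difference of the log2 profiles over the 8 arrays after each was centred on its own mean. The nearest to Cyp2a4 were Cyp2b9 (0.54), Gdf15 (0.66), which encodes a secreted stress cytokine, and Gsta2 (0.70), a glutathione transferase gene. For Cyp2g1 they were Elovl6 (0.43), a fatty acid elongase gene, Lrrc24 (0.43) and Dysf (0.54). For Cyp2a12 they were Klhl5 (0.28), Htt (0.30) and Mdfic (0.31), for Cyp2f2 Maged2 (0.07), Pstk (0.10) and Smcr8 (0.11), and for Cyp2a22 Olfr1135 (0.14), Zmynd10 (0.14) and Clcn5 (0.18). The 3 genes nearest to Cyp2a22 were each at the floor on 1 control array, as Cyp2a22 was. The genes described here were not candidates for each other, and Cyp2b23, Cyp2b19 and Cyp2s1 lay below the median intensity. Among the candidates left, the gene nearest to Cyp2a4 was Cyp2b9, next to it in the order of P450 genes. Both rose and were lowest among the NaPB arrays on replicate 4. Cyp2b10 and Cyp2b13 of the cluster, which also rose, were candidates too and were not among the 3 genes nearest to Cyp2a4. None of the genes nearest to the other 4 was a P450 gene. With so many genes of the cluster left out, the search cannot decide whether those 4 were less like their neighbours.

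**Figure D4:**
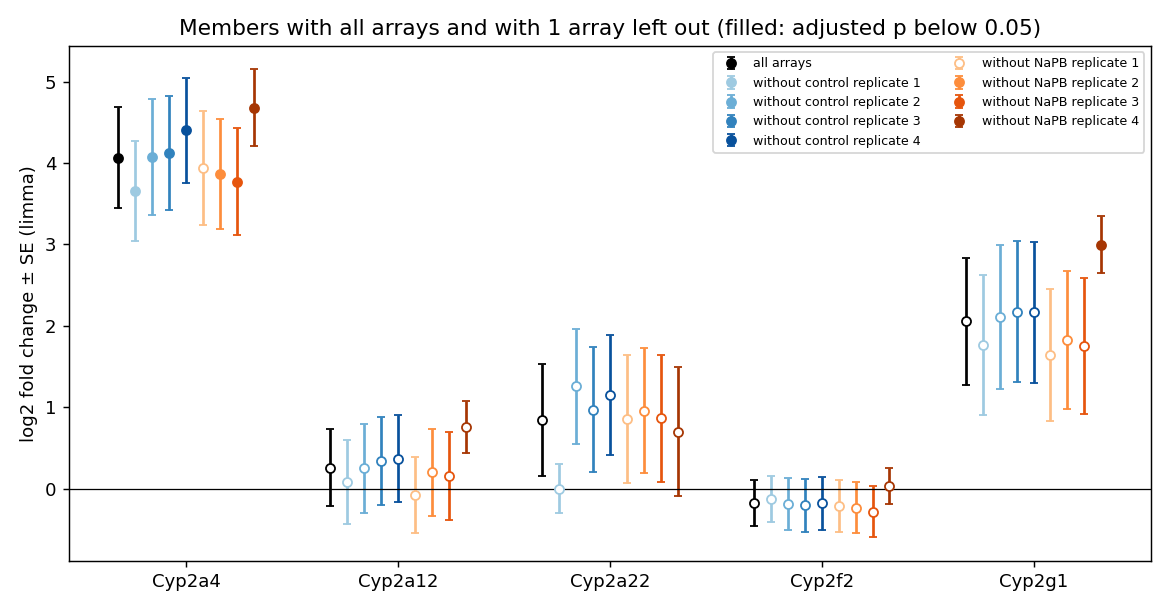
Log2 fold change ± SE (limma) of each gene with all arrays (black) and with 1 array left out (blue for a control array, orange to brown for a NaPB array), filled where the adjusted p was below 0.05. Cyp2a4 runs from 3.66 to 4.68, Cyp2g1 is filled only without NaPB replicate 4 (3.00), and Cyp2a22 drops to the 0 line without control replicate 1.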

How the data were processed

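The submitters' processing notes, as the labels give them, name Agilent Feature Extraction 10.7. The deposited values, made by the authors, are linear intensities, 1 for each feature and array, and have no read depth. Their 75th percentile was 0.952 to 0.974 on every array, so they had been scaled; how, and with what background correction, is not given in the sources used here. Of 62976 features, 31465 carried 1 gene symbol and 31511 none; symbols were updated through RefSeq tables of GRCm38.p6, giving 20738 genes.

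Values were analysed as log2 with no pseudocount, scaling or filter. Each gene was read by its brightest feature and fitted with limma 3.58.1 (R 4.3.3, diet as the only term, empirical Bayes, two-sided); p was adjusted by the Benjamini-Hochberg method across the genes. All features were also fitted singly. A value up to 2 times the lowest of its array counted as at the floor. Fits were tested on simulated data. Pairs of genes were compared with scipy 1.17.1, promoters aligned with Biopython 1.88.

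The genes, lists and tests were chosen with earlier results of these data known. Named are all members and P450 genes of the cluster, of each list the called genes (at most 4) or the one with the smallest p, and the 3 nearest genes; Cyb5a, Alas1, Dbp, Hnf4a and Nr1i3 were added after their values were seen. Alternatives are in the closing section.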

Additional observations from a re-analysis of the deposited data

Results flagged for a closer look

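Of the 12 sets of 4 arrays (6 features on 2 diets), 3 held an array farther from the others than Dixon's 95% critical value allows, measured as its gap to the nearest array over the whole log2 range of the set; chance flags about 1 in 20. For Cyp2a4 on the NaPB diet the gap of replicate 4 took 0.881 of the range, on the dimmer feature (7900). For Cyp2g1 on the NaPB diet the gap of the same replicate took 0.863, and on the control diet that of replicate 1, which was at the floor, took 0.835.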

How the results depend on the processing

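Cyp2a4 kept its direction in all 23 alternative fits, from 3.66 to 4.68. It was not called with a pseudocount of 1 (3.91, adjusted p = 0.0509), at a threshold of 0.01 (4.06), or without NaPB replicate 1. Cyp2g1 was called with array weights (2.57) and without control replicate 1 and NaPB replicate 4 together (2.71); with 1 array left out it ran from 1.64 to 3.00, and with a pseudocount of 1, which shrinks dim genes, it was 0.64 and not called. Members that were not called changed sign near 0: Cyp2f2 with array weights (0.0044) and without both arrays (0.079), and from -0.28 to 0.029 with 1 array left out; Cyp2a22 without both arrays (-0.14); Cyp2a12 from -0.071 to 0.76 with 1 array left out. Cyp2a12 minus Cyp2a22 ran from -1.01 to 0.0798, above 0 without control replicate 1 or NaPB replicate 4; the causes were not tested. The 209 genes called (81 higher, 128 lower) became 328 by quantile normalization, 111 by equal medians, 643 features singly, 812 with array weights (458 higher, 354 lower), 58 and 364 at thresholds of 0.01 and 0.1, 570 without both arrays, and 88 to 365 with 1 array left out. With the replicate number as a block (replicate block) 135 were called and no call on a member changed. Deviations of same-numbered arrays from their diet means correlated from -0.29 to 0.23. These values were not compared with other pairs of arrays, so they cannot decide whether same-numbered arrays had more in common than a number. Pair tests with 1 array left out could not reach 0.05. The number of arrays limits the precision, most for the dim Cyp2a22 and Cyp2g1.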
